A study of Mus musculus with 18 samples.

Results

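Acetylation of histone H3 at active promoters and enhancers (H3K27ac) was compared gene by gene between erythroblasts and cells sorted as immature megakaryocytes. Members were taken by label: 4 of the 18 samples of the series, with 2 H3K27ac libraries of erythroblasts, labelled ERY, and 2 of immature megakaryocytes, labelled iMK. The ERY lists held 25750 and 21768 peaks and the iMK lists 22931 and 24781, and they were laid over the 21938 protein-coding genes of the mouse, of which 14467 had a peak in or near the gene in at least 1 library. Peaks were called on the mouse build mm10 in each library alone. All 4 libraries came from bone marrow of adult C57BL6 mice, male by the study's methods, for which the labels name no altered allele and no treatment, and all used the Abcam antibody ab4729. ERY, the nucleated precursors of red cells, were sorted for Ter119 and CD44 at low forward scatter. The iMK gate took CD41+, CD61+ cells without Ter119, Sca1 or cKit, which precede the cells that shed platelets. Cells bearing CD45R, Ly6g, CD11b, IL7Ra, CD8 or CD4 were kept out of both gates.

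Acetyl groups on histone H3 are written by the coactivators EP300 and CREBBP at promoters and enhancers in use, and runs of closely spaced acetylated elements are typical of genes that a cell type transcribes strongly. Erythroid cells and megakaryocytes descend from a common progenitor and both use GATA1. KLF1 acts on the erythroid side, and ETS-family factors such as FLI1 act on the megakaryocytic side. Late erythroblasts shut down most of their genome and condense the nucleus before losing it, while megakaryocytes stay transcriptionally active as they enlarge.

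The labels were checked against marker genes. The locus of a gene here is its body with 10 kb on each side, and coverage is the percent of the locus lying under listed peaks. All 10 erythroblast markers had higher coverage in ERY in the test across all genes described below, and 6 of them had no iMK peak. The megakaryocyte markers did not follow the iMK label. Itga2b, which encodes the sorting antigen CD41, was covered at 16.8% and 3.80% in ERY and 0% in both iMK libraries (limma, adjusted p = 0.21). Itgb3, which encodes CD61, was covered at 0% in both ERY libraries and at 5.82% and 8.73% in iMK (limma, adjusted p = 0.0267). Of 12 megakaryocyte markers, 10 had any peak, 4 were higher in ERY and 1, Itgb3, was higher in iMK, and their summed covered length was 97.6 and 81.4 kb in ERY against 15.1 and 22.1 kb in iMK. Gp9, of those higher in ERY, stood among 8 consecutive tested genes higher in ERY, from Prokr1 to Cnbp. Coverage of a marker locus can therefore include peaks of neighbouring genes. The platelet genes Pf4 and Gp6 had no peak in any library. All 12 neutrophil and monocyte markers had peaks in at least 1 library, 5 of them were higher in iMK and 0 in ERY, and their summed length was 10.3 and 3.80 kb in ERY against 69.2 and 122 kb in iMK. Of the other lists, 2 of 8 B and T cell genes and 1 of 5 stromal and endothelial genes were higher in iMK and none was higher in ERY, and 5 mast cell and basophil genes had no peak. The part that neutrophils or monocytes have in the results below was not tested, and iMK is used below as the label of these libraries. In bulk samples, fewer cells of a type and less of the mark per cell cannot be told apart.

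Promoter sequences are shown for the most clear-cut differences. They belong to 5 genes among those with the widest gap in locus coverage among genes whose promoter was called in both libraries of a cell type and in neither of the other. The bases just upstream of the RefSeq start are given on GRCm38.p6, 5′ to 3′. Capitals mark matches to a GATA motif (AGATAA or TGATAA) or a CACCC motif (CCACCC), read on both strands.
Hba-a1, chr11:32283422-32283671, plus strand: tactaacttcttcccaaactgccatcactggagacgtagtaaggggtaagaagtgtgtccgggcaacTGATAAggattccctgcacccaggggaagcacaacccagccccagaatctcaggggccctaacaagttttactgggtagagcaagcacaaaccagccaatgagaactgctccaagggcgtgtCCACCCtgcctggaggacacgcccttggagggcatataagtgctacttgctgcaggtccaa
Hbq1b, chr11:32286714-32286963, plus strand: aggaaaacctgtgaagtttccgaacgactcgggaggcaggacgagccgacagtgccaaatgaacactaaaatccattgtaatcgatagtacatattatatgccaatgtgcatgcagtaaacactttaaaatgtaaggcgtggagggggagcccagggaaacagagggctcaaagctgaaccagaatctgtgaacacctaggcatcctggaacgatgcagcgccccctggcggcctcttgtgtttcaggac
Msantd1, chr5:34915665-34915914, plus strand: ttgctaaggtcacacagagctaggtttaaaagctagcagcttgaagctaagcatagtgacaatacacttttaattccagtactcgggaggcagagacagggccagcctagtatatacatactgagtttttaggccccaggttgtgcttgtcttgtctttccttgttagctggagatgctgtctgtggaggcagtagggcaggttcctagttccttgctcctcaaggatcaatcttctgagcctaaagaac
Tifab, chr13:56178886-56179135, minus strand: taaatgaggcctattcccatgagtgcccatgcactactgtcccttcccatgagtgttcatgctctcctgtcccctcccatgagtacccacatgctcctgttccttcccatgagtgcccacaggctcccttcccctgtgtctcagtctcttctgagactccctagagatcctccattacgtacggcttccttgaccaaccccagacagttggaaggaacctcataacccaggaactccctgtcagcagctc
Cd300a, chr11:114889791-114890040, plus strand: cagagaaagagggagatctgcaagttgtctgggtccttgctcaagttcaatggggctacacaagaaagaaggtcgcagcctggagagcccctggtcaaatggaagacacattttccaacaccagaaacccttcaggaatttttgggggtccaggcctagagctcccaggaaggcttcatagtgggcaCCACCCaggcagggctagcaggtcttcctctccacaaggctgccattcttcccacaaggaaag
Hba-a1 encodes alpha-globin and Hbq1b a theta-globin, and the function of Msantd1 is not described here. Tifab encodes a regulator of innate immune signalling and Cd300a an inhibitory receptor of leukocytes. All 250 bases shown for Hba-a1, Hbq1b and Msantd1 lay under peaks in both ERY libraries and 0 bases did in either iMK library. The stretch upstream of Tifab was covered at 0 bases in ERY and at all 250 bases in both iMK libraries, and that of Cd300a at 0 bases in ERY and 240 and 250 bases in iMK. Over the whole locus, Hba-a1 was covered at 100% and 98.1% in ERY and Msantd1 at 98.2% and 97.1%, with 0% in iMK. Tifab was covered at 72.7% and 60.7% and Cd300a at 54.9% and 72.8% in iMK, with 0% in ERY. Hba-a1 and Hbq1b are neighbours that share peaks, and both have near-identical copies in the same cluster between which reads may not be told apart.

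Among 250-base promoters of the RefSeq annotation, a GATA motif lay in 16.6% of all 32817, in 21.6% of 440 belonging to genes with a promoter called only in ERY, in 10.9% of 1919 belonging to genes with a promoter called only in iMK, and in 8.69% of 7937 belonging to genes with a promoter called in all 4 libraries. A CACCC motif lay in 28.1%, 40.9%, 36.0% and 30.4% of the same promoters in that order. An ETS motif (GGAAGT) lay in 19.7%, 15.5%, 22.0% and 26.2%, and a RUNX motif (TGTGGT) in 14.0%, 13.0%, 11.5% and 10.6%. Of the 5 promoters printed, Hba-a1 held a GATA and a CACCC motif, Cd300a a CACCC motif, and none held the ETS or RUNX letters. The 32817 promoters belong to 26994 genes, and so take in genes outside the 21938 protein-coding genes in which the classes were defined. These matches describe letters and not bound sites.

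Over all genes, 3189 of 14467 had more of their locus under H3K27ac in ERY and 2490 had more in iMK, which is 22.0% and 17.2% of the genes tested (limma with a trend, Benjamini-Hochberg adjusted p under 0.05). The genes of the 2 directions differed in the promoter classes they came from. Among the genes tested, 7897 had a promoter called in all 4 libraries, 476 only in ERY and 1877 only in iMK. Of the 3189 higher in ERY, 2202 (69.0%) had a promoter called in all 4 libraries, 381 (11.9%) a promoter called only in ERY, and 492 (15.4%) had no peak in either iMK library. Of the 2490 higher in iMK, 513 (20.6%) had a promoter called in all 4 libraries, 1239 (49.8%) a promoter called only in iMK, and 1539 (61.8%) had no peak in either ERY library. Read by class, 27.9% of the shared-promoter genes were higher in ERY and 6.50% in iMK, 80.0% of the ERY-only class were higher in ERY, and 66.0% of the iMK-only class were higher in iMK, classes that rest on the same peaks as the test.

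The direction of this balance depended on how peaks were counted. ERY made up 56.2% of the differing genes as listed, 35.4% when each list was reduced to its most significant peaks at equal covered length (2301 genes higher in ERY, 4206 in iMK), and 37.7% when each peak was reduced to its central 1 kb (1384 and 2291). The median difference over all genes was 0.60 percentage points as listed and -1.10 at equal covered length. Leaving out a library turned or widened it too. Without iMK replicate 1, 917 genes were higher in ERY and 3248 in iMK, and without iMK replicate 2, 927 and 2816. Without ERY replicate 1, 2490 were higher in ERY and 756 in iMK, and without ERY replicate 2, 3276 and 754. In each of these fits 1 cell type has a single library, which is assumed to vary like the 2 of the other, and this holds wherever counts without a library are given below.

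Within the loci, the extra length in ERY lay mainly in the gene bodies. At the 3189 genes higher in ERY, peaks covered on average 8.74 and 7.80 kb of gene body outside promoters in the ERY libraries and 0.78 and 0.99 kb in the iMK libraries. Their promoters, each annotated transcription start site (TSS) with 1 kb on each side, were covered over 3.98 and 3.65 kb in ERY and 1.99 and 2.13 kb in iMK. At the 2490 genes higher in iMK, gene bodies were covered over 0.257 and 0.188 kb in ERY and 2.83 and 3.32 kb in iMK, and promoters over 0.573 and 0.480 kb in ERY and 2.07 and 2.21 kb in iMK. Promoters made up 23.7% and 24.1% of the ERY length at genes higher in ERY, and 33.8% and 31.9% of the iMK length at genes higher in iMK.

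Covered length was also divided by distance from the nearest TSS. Within 1 kb, ERY and iMK lists covered nearly the same length, 17.7 ± 1.58 Mb and 17.7 ± 1.21 Mb (SD, n = 2 each), and the groups overlapped. From 1 to 5 kb the ERY lists covered 18.7 ± 2.26 Mb and the iMK lists 9.47 ± 1.84 Mb, a ratio of 1.97 with no overlap. The ratio then fell with distance, to 1.82 at 5 to 20 kb, 1.58 at 20 to 50 kb, 1.44 at 50 to 100 kb and 1.27 beyond 100 kb, and both ERY libraries lay above both iMK libraries in each of these classes. Bases over 1 kb from any TSS made up 75.5% and 74.4% of the ERY length and 60.8% and 65.1% of the iMK length, a mean difference of 12.03 points. With 2 libraries a group, the 6 arrangements of an exact permutation test allow no two-sided p below 0.33, and such values therefore carry no p.

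**Figure D1:**
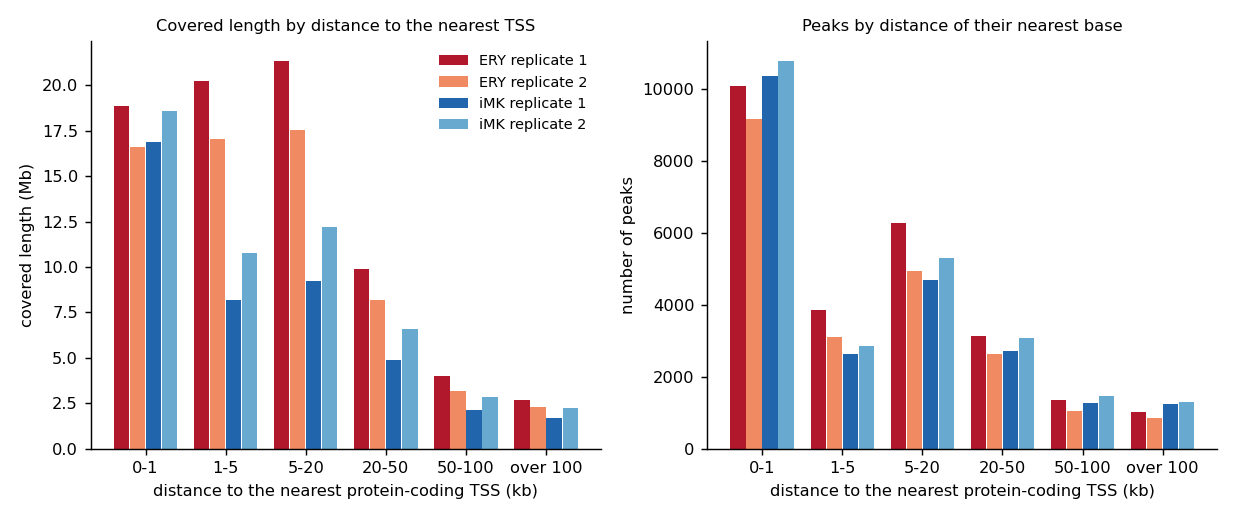
H3K27ac covered length in Mb (left) and number of peaks (right) by distance from the nearest TSS, with a bar for each of the 2 ERY and 2 iMK libraries. Covered length is alike within 1 kb and is higher in both ERY libraries in every class farther out, while peak numbers beyond 100 kb are higher in both iMK libraries.

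Peak numbers told a different story from covered length. Distal peaks, those with no base within 1 kb of a TSS, numbered 14135 ± 2172 in ERY and 13280 ± 1016 in iMK, a difference within the spread of the ERY libraries. Their mean width was 2550 ± 24.8 bp in ERY and 1825 ± 194 bp in iMK. Beyond 100 kb of any TSS, peaks numbered 941.5 ± 112 in ERY and 1275.5 ± 27.6 in iMK, so that iMK held more of the most remote peaks although ERY covered more bases there. The widest peak spanned 75600 and 65200 bp in the ERY lists and 16400 and 23600 bp in the iMK lists. The wider ERY peaks had a lower median fold, the deposited ratio of ChIP to control, in every distance class. For peaks with a base within 1 kb of a TSS it was 4.40 and 3.47 in ERY and 9.58 and 8.43 in iMK. For those nearest at 1 to 5 kb it was 2.58 and 2.32 in ERY and 4.17 and 4.28 in iMK. The part of fold in covered length and in the reach given below was not tested.

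When overlapping peaks of the 4 libraries were joined into regions, sharing depended strongly on distance. Of 13365 regions touching a promoter window, 51.6% were called in all 4 libraries. Of the regions in the 5 classes farther out, between 2.16% and 4.80% were shared, and 50.6% to 55.8% followed none of the replicated patterns, against 20.7% of those touching a promoter window. Regions called in both iMK and neither ERY library made up 19.6% of the nearest of these 5 classes and 28.4% of the most remote, and those called in both ERY and neither iMK library 20.3% and 17.1%. Among the regions touching a promoter window the values were 18.2% and 9.48%.

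Promoters that carried the mark in all 4 libraries were used to see how far it extended along the gene. At 16353 TSSs of 7004 genes with a peak over the TSS base in every library, the peak reached a median of 1515 and 1435 bp downstream in ERY and 1029 and 1134 bp in iMK. Upstream it reached 1154 and 1078 bp in ERY and 855 and 952 bp in iMK. The downstream reach was longer in both ERY than in both iMK libraries at 43.2% of these TSSs and longer in both iMK libraries at 9.81%. It exceeded 5 kb in both ERY libraries at 6.10% of the TSSs and in both iMK libraries at 0.544%. In the 4 quartiles of gene length the median difference was between 382.5 and 423 bp, so it was present in short and long genes alike. TSSs of a gene often lie close together and share a peak, so they are not separate observations.

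The same extension appeared around promoters as an average profile. In the bin centred 0.5 kb downstream of the promoters shared by all libraries, 86.7% and 84.1% of bases were covered in ERY and 83.3% and 86.1% in iMK. At 5.5 kb downstream the values were 18.2% and 15.4% in ERY and 5.73% and 7.23% in iMK. Around promoters called only in ERY the signal stayed wide, with 28.9% and 22.3% covered in ERY at 20.5 kb downstream, where iMK had 5.37% and 6.42%. Around promoters called only in iMK it was narrow, with 7.98% and 10.6% in iMK at 5.5 kb downstream, where ERY had 1.03% and 0.51%.

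**Figure D2:**
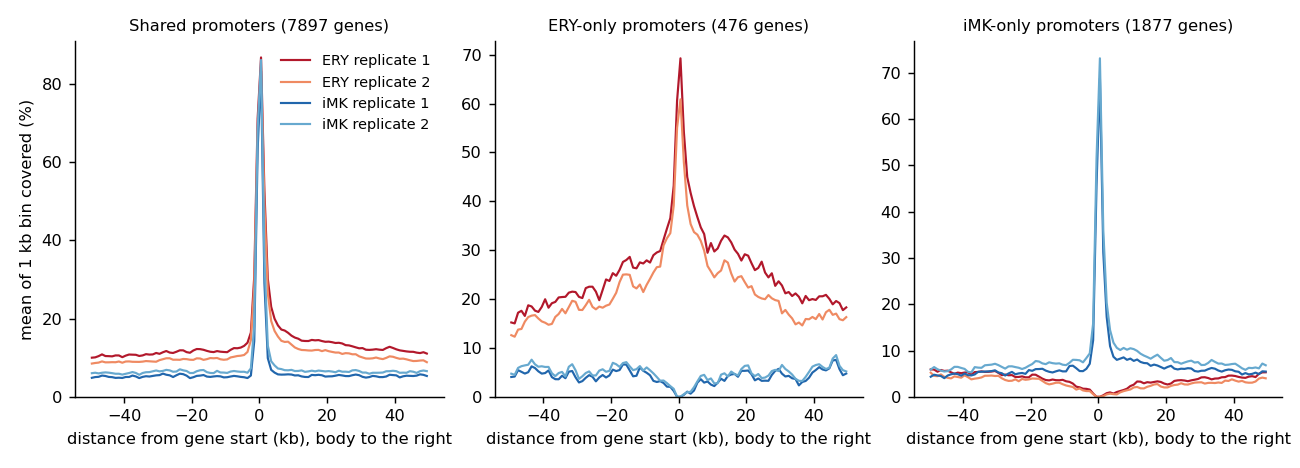
Mean percent of bases covered by H3K27ac peaks in 1 kb bins up to 50 kb from the promoter, in the direction of transcription, for promoters called in all 4 libraries, only in ERY and only in iMK, with a line for each library. ERY lines lie above iMK lines on both sides of shared promoters except in the bins next to the TSS, where they cross, and the flanks of ERY-only promoters are wider than those of iMK-only promoters.

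The genes with the largest gain in ERY were chosen by covered kb, a measure that favours long genes. The 12 named here had 74.8 to 157 kb covered in ERY and 0 to 28.0 kb in iMK. They were picked for passing the test with the largest difference, so a gap between the cell types follows from the choice. At Gse1 (chr8:120228456-120581390), which encodes a protein found with the LSD1 corepressor complex, peaks covered 157 and 119.8 kb of the locus in ERY and 20.6 and 28.0 kb in iMK, a difference of 30.6 ± 4.31 percentage points of the locus (limma SE, adjusted p = 0.0199). Sox6, a transcription factor that silences embryonic globin genes in red cells, was covered over 101 and 96.0 kb in ERY and 1.0 and 0.8 kb in iMK, a difference of 16.6 ± 0.87 points (limma SE, adjusted p = 0.0065). The Sox6 groups were thus far apart, with almost no iMK signal over the gene.

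The corepressor gene Cdyl was covered over 109.8 and 100.2 kb in ERY and 4.4 and 8.0 kb in iMK. Fbxl17, which encodes a substrate adaptor of a ubiquitin ligase, was covered over 124 and 105 kb in ERY and 2.2 and 2.6 kb in iMK. Lipc, known as the gene of hepatic lipase, was covered over 122 and 98.2 kb in ERY and 7.2 and 14.2 kb in iMK. None of these 3 overlapped between the cell types, which the choice of genes favours. The acyltransferase genes Mboat2 and Agpat4, the monoacylglycerol lipase gene Mgll, the sialyltransferase gene St3gal3, the calcineurin-binding protein gene Cabin1, the spindle checkpoint gene Mad1l1 and the ARF exchange factor gene Cyth3 complete the set. Of the 12 genes, 3 passed the test when iMK replicate 1 was left out and 3 when iMK replicate 2 was, and none changed sign under any alternative.

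The genes with the largest gain in iMK included more with no ERY peak at all. At Etv6 (chr6:134035700-134270158), an ETS-family repressor needed for adult haematopoiesis, peaks covered 0 kb in both ERY libraries and 86.0 and 102.4 kb in iMK, a difference of -37.0 ± 2.89 points (limma SE, adjusted p = 0.0082). Fli1, the ETS factor that drives megakaryocyte genes and is also used in other blood lineages, was covered over 0 kb in ERY and 31.8 and 41.0 kb in iMK. Rin3, which encodes an exchange factor of RAB5, was covered over 0 kb in ERY and 33.4 and 53.8 kb in iMK. In these 3 genes the whole of the covered length came from iMK.

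Other genes of this group carried the mark in both cell types. The forkhead factor gene Foxp1 was covered over 7.4 and 9.6 kb in ERY and 78.0 and 87.8 kb in iMK, and the predicted gene Gm20696 overlaps its locus and shares its peaks. Zmiz1, which encodes a transcriptional coactivator, was covered over 34.6 and 21.4 kb in ERY and 69.0 and 67.8 kb in iMK. The remaining genes were Ubac2, of a protein of the endoplasmic reticulum, the phosphatase gene Ptpre, the RAC1 regulator gene Fam49b, the xylosyltransferase gene Xylt1, the RAS GTPase-activating protein gene Rasa3 and the mitochondrial ribosomal protein gene Mrpl33. Of the 12 genes, 4 passed the test when ERY replicate 1 was left out and 4 when ERY replicate 2 was, and none changed sign under any alternative. Neutrophil and monocyte markers also had more covered length in iMK, as given above, and their part in these genes was not tested.

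**Figure D3:**
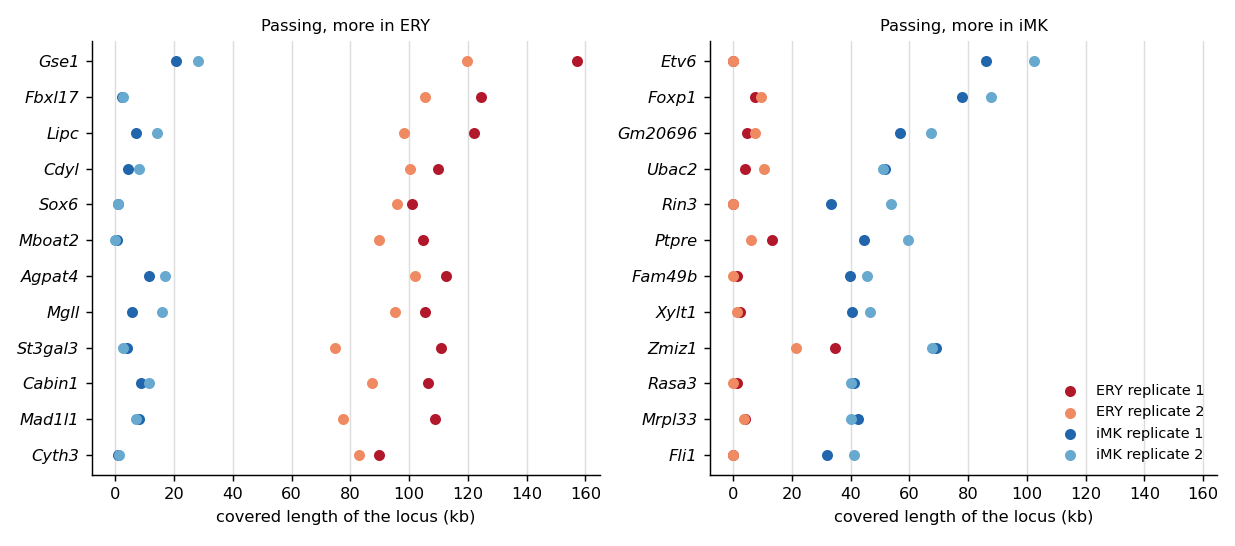
Kilobases of each locus covered by H3K27ac peaks for the 12 genes with the largest difference in each direction, with a point for each library. The 2 ERY points and the 2 iMK points do not overlap at any gene, which follows from picking genes by this difference. At Etv6, Rin3 and Fli1 both ERY points lie at 0.

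Enhancer-like signal away from promoters was tested apart from promoters. The distal length of a gene is the length of peaks over 1 kb from any TSS and within 100 kb of its own TSS as the nearest. Of 12047 genes with any, 2831 had more in ERY and 1897 more in iMK, 23.5% and 15.7% of those tested (limma, adjusted p under 0.05). ERY made up 59.9% of these genes as listed, 47.9% at equal covered length, 47.2% with the central 1 kb of each peak and 69.4% with only the peaks above the median significance of each list. Of the ERY direction, 2013 genes (71.1%) had a promoter shared by all libraries. Of the iMK direction 536 (28.3%) did, and 1401 (73.9%) had no distal length in either ERY library. Leaving out iMK replicate 1 or 2 left 1048 or 1097 genes with more in ERY against 3379 or 2974 in iMK, and leaving out ERY replicate 1 or 2 left 3405 or 4059 with more in ERY against 712 or 705 in iMK.

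As listed, more genes had a distal peak in iMK and more genes had many in ERY. Peaks per gene averaged 0.667 and 0.534 in ERY and 0.515 and 0.578 in iMK, and the groups overlapped. At equal covered length the direction turned without overlap, to 0.0887 and 0.128 in ERY and 0.515 and 0.303 in iMK. That length is the 42.9 Mb of iMK replicate 1, whose list stays whole, while the other lists lose their less significant peaks. Genes with at least 1 distal peak numbered 5053 and 4460 in ERY and 5183 and 5524 in iMK. Of 8932 genes with a distal peak in any library, 2335 had more in both ERY than in both iMK libraries (26.1%) and 2633 had more in both iMK libraries (29.5%). At least 1 peak in both libraries of the cell type was found at 3827 genes in ERY and 4438 in iMK, at least 5 at 541 and 426 genes, and at least 10 at 155 and 57 genes. Only 9 genes had at least 10 in all 4 libraries.

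**Figure D4:**
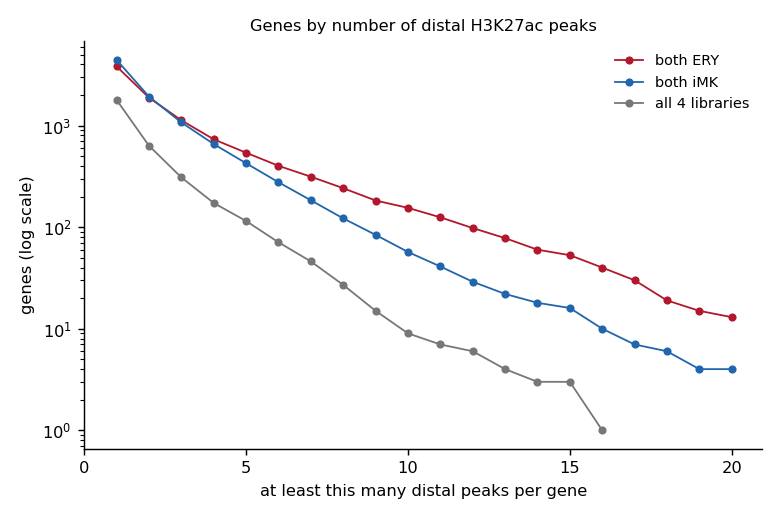
Number of genes (log axis) with at least the given number of distal H3K27ac peaks in both ERY libraries, in both iMK libraries and in all 4. The iMK line starts above the ERY line, with 4438 against 3827 genes at 1 peak, and lies below it at 10 peaks, with 57 against 155.

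Among the 8 genes with the largest gain of distal peaks in ERY, St3gal3 held 32 and 25 peaks in ERY and 1 and 0 in iMK, and Cdyl held 31 and 31 in ERY and 2 and 5 in iMK. Chchd3, which encodes a scaffold of the mitochondrial inner membrane, held 26 and 23 in ERY and 0 in both iMK libraries. Sox6 held 25 and 20 in ERY and 1 in each iMK library. The others were Fam126a, Ext1, Jmy and Ano6. The 8 were picked by this difference, so a gap between the cell types follows from the choice.

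In iMK, Etv6 held 34 and 40 distal peaks against 0 in both ERY libraries, the highest number of any gene in the iMK lists. Ifngr1, which encodes a chain of the interferon gamma receptor, held 18 and 16 in iMK and 0 in ERY. Foxp1 held 27 and 23 in iMK and 1 and 2 in ERY, and Tns3, of a focal adhesion protein, held 16 and 13 in iMK and 1 and 0 in ERY. The others were Zfp608, Zmiz1, Arhgap26 and Zfp516, and these 8 were picked by the same difference. When either library of the cell type with fewer peaks was left out, 2 of the 8 genes in each direction passed the test of distal length.

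Promoter calls and distal regions were then read together. A promoter was called only in ERY at 476 genes (2.17% of 21938), only in iMK at 1877 (8.56%) and in all 4 libraries at 7897. These counts moved to 289 and 3666 for the ERY-only and iMK-only classes at equal covered length. Of the 476 genes, 167 (35.1%) had ERY-only distal regions and no iMK-only ones, 18 (3.78%) the reverse, and 263 (55.3%) neither. Of the 1877 genes, 694 (37.0%) had iMK-only distal regions and no ERY-only ones, 60 (3.20%) the reverse, and 1049 (55.9%) neither. Among the 10348 genes with no promoter called in any library, 3.64% had ERY-only distal regions without iMK-only ones and 7.13% the reverse. Of the 7897 genes with a shared promoter, 1287 (16.3%) had ERY-only distal regions and no iMK-only ones, and 999 (12.7%) the reverse. Both kinds were found at 465 (5.89%) of them and neither at 5146 (65.2%). Distal regions called in all 4 libraries or following no replicated pattern were left out of these counts. A gene with neither kind can therefore still have distal regions. The 465 genes thus had separate sets of acetylated regions around a promoter that was acetylated in both cell types.

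Some genes carried H3K27ac at different start sites in the 2 cell types. Of 4959 genes with protein-coding TSSs more than 5 kb apart, 27 (0.544%) had a TSS called only in ERY and another, over 5 kb away, called only in iMK. The ERY-only TSS lay downstream of the iMK-only TSS in 18 of the 27 and upstream in 9, and 20 of the 27 had no TSS called in all 4 libraries. The count was 46 without ERY replicate 2, 45 with the central 1 kb of each peak and 17 when the TSSs had to lie over 20 kb apart. A further 233 genes had a shared TSS and an ERY-only TSS over 5 kb from it, and 116 had a shared TSS and an iMK-only TSS that far away.

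The widest separation was at Itpr2, which encodes a calcium channel of the endoplasmic reticulum. Its ERY-only TSS at chr6:146227543 lay 169 kb downstream of its iMK-only TSS at chr6:146396986, and peaks covered 2001 and 2001 bp of the 2001 bp promoter window at the former in ERY and 186 and 786 bp at the latter in iMK. Trak1, an adaptor of mitochondrial transport, followed with 157 kb between the sites, 2001 and 2001 bp in ERY at its downstream site and 1312 and 1312 bp in iMK at its upstream one. At Mgat5, which encodes an enzyme that branches N-glycans, the sites lay 102 kb apart, with 2001 and 1839 bp covered in ERY and 1618 and 1418 bp in iMK. At each of these sites the other cell type had 0 bp.

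Ptk2b, a focal adhesion kinase gene, had its sites 111 kb apart, and the genes Retreg1, Tsc22d1 and Ubash3b 90.4, 89.3 and 82.2 kb apart, all with the ERY-only site downstream. Spata13 showed the opposite order over 98.9 kb. Peak lists for H3K4me3, a histone methylation typical of start sites, were read at the same TSSs in the same cell types. Among the genes named, no H3K4me3 list held a peak at the ERY-only TSS of Itpr2, Trak1, Mgat5, Ptk2b, Retreg1 or Ubash3b. Those of Tsc22d1 and Spata13 were called in both ERY libraries, and also in 1 iMK library at Tsc22d1 and in both iMK libraries at Spata13. The iMK-only TSS was called in an iMK library at all of these genes but Itpr2, and also in 1 ERY library at Trak1 and Mgat5. At the 27 iMK-only TSSs, H3K4me3 was called in both iMK libraries at 13 and in any iMK library at 22. It was called there in both ERY libraries at 1 and in any ERY library at 6. At the 27 ERY-only TSSs it was called in both ERY libraries at 4 and in any ERY library at 5. It was called there in both iMK libraries at 2 and in any iMK library at 4. Most of the ERY-only TSSs thus carried acetylation without a listed H3K4me3 peak in ERY. The share of all TSSs called in each H3K4me3 list was not taken, so these counts show no trait particular to these sites.

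Gene families were then read by role, using 53 families defined by symbol and grouped into 11 roles, with the 22.0% and 17.2% over all genes as the background. Genes of a family that lie in a cluster share peaks. Families of protein turnover had more members higher in ERY. Of 261 tested genes for ubiquitin ligases, deubiquitinases and related proteins, 74 were higher in ERY and 24 in iMK, with the order turned at equal covered length (51 and 67) and without iMK replicate 1 (26 and 31) or 2 (24 and 27). Deubiquitinases of the Usp family had 18 of 47 higher in ERY and 4 in iMK, with a tie (6 and 6) without iMK replicate 2 and the same order under the other alternatives. Usp7, which stabilises MDM2 and p53, was covered at 71.2% and 67.8% in ERY and 4.89% and 4.89% in iMK. Among the TRIM ubiquitin ligases 15 of 55 were higher in ERY and 4 in iMK, with the order turned at equal covered length (9 and 15), with the central 1 kb of each peak (7 and 8) and without iMK replicate 1 (4 and 8) or 2 (4 and 6). Of these, the neighbours Trim15 and Trim10, the latter with a role in terminal erythropoiesis, were covered at 88.7% and 75.4%, and at 65.9% and 53.8%, in ERY and at 0% in iMK.

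Genes of translation followed the same order as listed, 33 of 122 higher in ERY and 10 in iMK, but were level at equal covered length (24 and 26). Of 34 aminoacyl-tRNA synthetase genes, which encode the enzymes that load tRNAs, 11 were higher in ERY and 0 in iMK, against 7 and 8 at equal covered length. Hars, the histidine enzyme, was covered at 72.7% and 69.3% in ERY and 7.65% in both iMK libraries, and Cars, the cysteine enzyme, at 60.1% and 59.1% in ERY and 6.95% and 8.23% in iMK. Of 55 translation initiation factor genes 17 were higher in ERY and 5 in iMK, with the order turned without iMK replicate 2 (6 and 7). The promoters of Hars and Cars were called in all libraries, so these differences lay in the extent of the mark over the locus. Hars stood among 6 consecutive tested genes higher in ERY, from Ndufa2 to Hars2. Farsa and Nars also stood in such runs, so coverage of these loci can include peaks of neighbouring genes.

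Membrane transport was divided almost evenly, with 66 of 288 genes higher in ERY and 59 in iMK, and the order turned at equal covered length (63 and 91), with the central 1 kb of each peak (33 and 49) and without iMK replicate 1 (26 and 85) or 2 (24 and 70). In the solute carriers (Slc) 48 of 199 were higher in ERY and 43 in iMK, and the order turned under the same settings. Slc16a1, a lactate and pyruvate carrier, was covered at 78.4% and 85.4% in ERY and 4.52% and 5.03% in iMK, and the phosphate carrier gene Slc20a1 at 82.2% and 85.9% in ERY and 7.91% and 6.09% in iMK. Slc43a2, an amino acid carrier, went the other way with 2.73% and 2.43% in ERY and 30.6% in both iMK libraries. Of 5 aquaporins tested 4 were higher in ERY and 0 in iMK, and 0 and 0 without iMK replicate 1 or 2. Aqp1, the water channel of the red cell membrane, was covered at 88.9% and 78.3% in ERY and 0% in iMK.

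Cell surface receptors had more members higher in iMK. Of 151 tested, 23 were higher in ERY and 62 in iMK, with the order turned only without ERY replicate 1 (17 and 15) or ERY replicate 2 (21 and 13). Of the Siglec, Pilr, Lilr and Pir families of paired immune receptors, 1 of 13 was higher in ERY and 10 in iMK, and without either ERY library the counts were 1 and 0. Siglece was covered at 0% in ERY and 31.6% and 37.8% in iMK. Of genes named as CD antigens 10 of 64 were higher in ERY and 27 in iMK, with the order turned without ERY replicate 2 (8 and 5). Of the G protein-coupled receptors 8 of 57 were higher in ERY and 21 in iMK, with the order turned without ERY replicate 1 (8 and 7) or 2 (10 and 7). Cd33, a sialic acid receptor of myeloid cells, was covered at 0% in ERY and 27.4% and 30.4% in iMK, and Gpr65, a proton-sensing receptor, at 0% in ERY and 36.3% and 39.9% in iMK. In the ERY direction, the neighbours Cd59a and Cd59b, inhibitors of complement on red cells, were covered at 90.0% and 81.4%, and at 75.4% and 63.8%, in ERY and at 0% in iMK.

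Signalling genes leaned the same way, with 18 of 131 higher in ERY and 39 in iMK, except without ERY replicate 1 (14 and 13) or ERY replicate 2 (25 and 13). The dual-specificity phosphatases, which switch off MAP kinases, had 1 of 19 higher in ERY and 9 in iMK, with a tie (4 and 4) without ERY replicate 2. Dusp6 was covered at 0% in ERY and 32.2% and 45.3% in iMK. The SMAD and TGF beta receptor genes were counted not here but among the transcription factors below. Of these 19 genes 1 was higher in ERY and 7 in iMK, with a tie (4 and 4) after quantile normalization. The 7 included the mediator gene Smad1 with 0% in ERY and 5.67% and 6.16% in iMK.

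Of 425 transcription factor genes tested 52 were higher in ERY and 71 in iMK, both below the background percentages, with the order turned for the peaks above the median significance of each list (60 and 58) and without ERY replicate 1 (38 and 29) or 2 (56 and 27). Nuclear receptors had 1 of 30 higher in ERY and 12 in iMK, an order kept under every alternative. Nr4a1, an immediate early receptor, was covered at 3.94% and 3.44% in ERY and 33.9% and 36.3% in iMK, and Rara, the retinoic acid receptor, at 2.95% and 3.28% in ERY and 32.8% and 35.1% in iMK. The exception was the vitamin D receptor gene Vdr, with 12.3% and 10.5% in ERY and 0.525% and 0% in iMK. The forkhead factor Foxo3, which acts in erythroid maturation, was covered at 56.6% and 49.1% in ERY and 9.57% and 13.0% in iMK. Zinc finger genes of the Zfp series, the family with the most members tested, had 39 of 327 higher in ERY and 43 in iMK, and the order turned under 4 alternatives. Chromatin regulators had 19 of 73 higher in ERY and 10 in iMK, against 13 and 14 at equal covered length, 4 and 11 without iMK replicate 1 and 5 and 10 without iMK replicate 2.

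Immune and secreted proteins had 23 of 137 genes higher in ERY and 49 in iMK, with the order turned without ERY replicate 1 (19 and 18) or 2 (20 and 18). The Ms4a genes, clustered on 1 chromosome, had 0 of 13 higher in ERY and 9 in iMK, and the S100 genes 2 of 15 and 8 of 15, and both orders held under every alternative. The chemokines had 3 of 23 higher in ERY and 10 in iMK, with ties for the peaks above the median significance of each list (2 and 2) and without ERY replicate 1 or 2 (3 and 3 each). The neighbouring chemokine genes Ccl6 and Ccl9 were covered at 0% in ERY and at 38.9% and 47.3%, and 35.3% and 37.6%, in iMK. The chemokine genes of the ERY direction included the pair Ccl17 and Ccl22 on chromosome 8, with 78.7% and 54.6%, and 45.2% and 53.7%, in ERY and 0% in iMK. S100a4, a calcium-binding protein gene, was covered at 0% in ERY and 35.0% in both iMK libraries. Summed neutrophil and monocyte marker length was 10.3 and 3.80 kb in ERY against 69.2 and 122 kb in iMK. The part of neutrophils or monocytes in these families was not tested. S100a8 and S100a9 stand in both that marker list and the S100 genes. Genes of the cytoskeleton and trafficking had 31 of 164 in each direction as listed, 26 and 50 at equal covered length, 25 and 4 without ERY replicate 1, 35 and 4 without ERY replicate 2, 10 and 40 without iMK replicate 1 and 10 and 32 without iMK replicate 2. Those higher in ERY included the sorting nexin gene Snx3 with 81.3% and 74.6% in ERY and 4.87% in both iMK libraries. Metabolic genes had 17 of 93 higher in ERY and 31 in iMK, with the order turned without ERY replicate 1 (20 and 8) or 2 (26 and 8). Genes typical of other tissues had 19 of 100 higher in ERY and 14 in iMK, with the order turned at equal covered length (7 and 15), with the central 1 kb (10 and 14) and without iMK replicate 1 (5 and 34) or 2 (3 and 34).

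**Figure D5:**
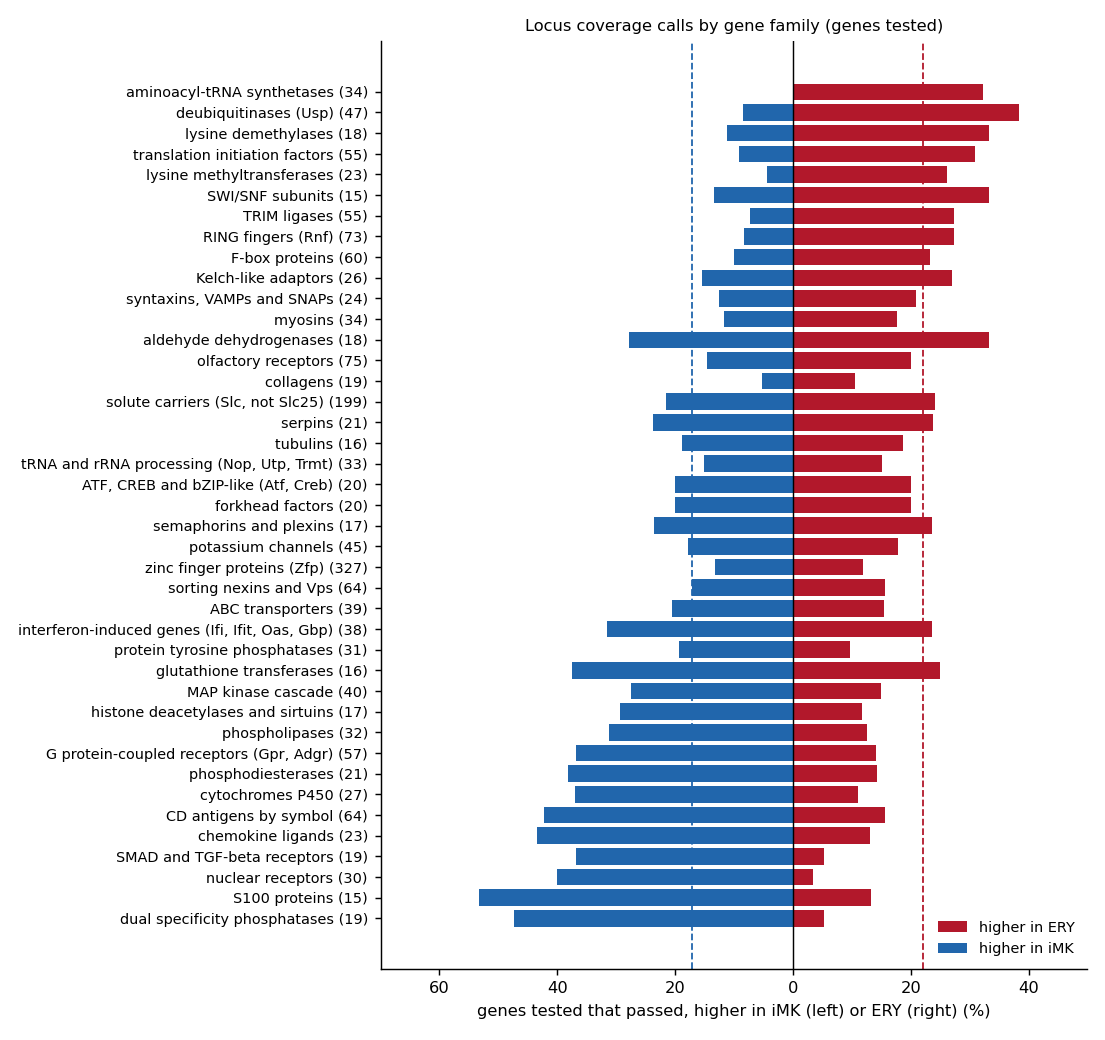
Percent of tested genes with higher locus coverage in iMK (bars to the left) and in ERY (bars to the right) for families with at least 15 tested genes, with dashed lines at the percentages over all genes, 17.2% and 22.0%. Bars of the Usp and tRNA synthetase families reach past the ERY line, and those of the dual-specificity phosphatases and nuclear receptors reach past the iMK line.

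Gene position was read on the same test. Leaving out chromosome Y, with 5 tested genes and 0 passing, the share of tested genes higher in ERY ran from 15.3% on chromosome X to 32.6% on chromosome 18, where 21 of the 112 genes higher in ERY belonged to a single cluster described below, and that higher in iMK from 13.5% on chromosome 4 to 20.6% on chromosome 1. In the quartile of genes with the fewest other genes within 500 kb (up to 8), 608 of 3036 tested genes (20.03%) were higher in ERY and 593 (19.5%) in iMK. In the quartile with the most (over 27), 23.7% were higher in ERY and 14.4% in iMK. By gene length, 22.9% were higher in ERY and 16.2% in iMK in the shortest quartile of genes, and 23.3% and 19.9% in the longest.

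Genes that differed often followed one another along a chromosome. There were 94 runs of at least 5 consecutive tested genes higher in ERY, holding 645 of the 3189 genes. In iMK there were 44 such runs, holding 245 of the 2490. Genes without a peak in the locus were passed over, so a run can be long. A run of 6 genes in iMK, from Lmod3 to Eif4e3, spanned 2428 kb. Runs of at least 8 genes numbered 26 and 2. Loci of neighbours overlap, so a wide peak can place several genes in a run. The longest ERY run held 21 genes of the gamma protocadherin cluster at chr18:37661793-37841873, which encode neuronal adhesion molecules from overlapping transcripts with shared exons, and 1 of the 21 passed the test of distal length. The next held 19 and 16 genes at the replication-dependent histone clusters on chromosome 13, where near-identical copies make the assignment of reads uncertain and 10 genes of each run passed the distal test.

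A run of 13 genes at chr8:84699876-84937359 held the erythroid factor gene Klf1 together with Nfix, Lyl1, Calr and Mast1, and 8 of its genes passed the distal test. At chr7:103753480-103886252 a run of 10 took in the beta-globin genes Hbb-bt, Hbb-bs, Hbb-bh1 and Hbb-y and 5 olfactory receptor genes that flank them. Olfr66 was covered at 42.4% and 34.2% in ERY and 0% in iMK. Olfactory receptors as a family had peaks in the locus at 75 of 1135 genes, with 15 higher in ERY and 11 in iMK, an order that turned at equal covered length (4 and 11), with the central 1 kb of each peak (7 and 12) and without iMK replicate 1 (4 and 23) or 2 (2 and 26). In the iMK direction the longest run held 11 genes at chr7:45617289-45720836, from Fut1 to Rpl18, and the next held 8 genes on chromosome 11 that included the chemokine genes Ccl5, Ccl9, Ccl6, Ccl3 and Ccl4.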

How the data were processed

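ChIP-seq of H3K27ac in 2 ERY and 2 iMK libraries was analysed from 1 deposited peak list per library. Groups came from the labels, which number no replicates. The study describes replicates as drawn from separate groups of mice or from separate sorted portions of the same mice, so the spread between them may be technical. The members, gene lists and families were chosen with earlier results of these data known. The 10 input libraries were not used, and H3K4me3 lists entered only at alternative TSSs.

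Bowtie 1.0.0, SICER 1.1 and mm10 stand in the processing notes of the submitters with no role given, and the study's general methods name Bowtie and MACS. Peak edges lay on a 200 bp grid. The authors deposited for each peak a fold (ratio of ChIP to control), a p-value and a q-value, and all q-values were under 0.01. The p-value served only to rank peaks within a list, with ties broken by fold. Lists hold no read depth, so no precision from depth is given. A locus at 0% has no listed peak, which does not show that the mark is absent. Windowed calling joins neighbouring elements, so covered length can follow sequencing depth and background as well as the mark.

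Peaks were intersected with GENCODE vM21 protein-coding genes on GRCm38 in Python 3.11.15 (numpy 2.4.6, pandas 2.3.3), with coordinates counted from 1. Locus coverage and distal length were each fitted with limma 3.58.1 in R 4.3.3, with a trend and no covariates, over genes with a value above 0 in any of the 4 libraries, and p-values were adjusted by Benjamini-Hochberg over all genes of the fit and called under 0.05. Loci at 0 in both libraries of a group add no spread to the fit. The scripts were tested on simulated data. Named genes were the 12 in each direction with the largest difference in covered kb of the locus and the 8 with the largest difference in distal peak number, each among genes passing the test, 2 per direction and family, the 8 genes with the widest gap between alternative TSSs, up to 3 promoters per direction, and the marker lists. A few items that these rules would name are not reported here. Examples printed from the families were picked from these after their values were seen, as were the genes named within runs. A family is a set of symbols, and a symbol pattern can take in an unrelated gene. Alternatives varied the peaks used, peak width, scaling, filters, scale, windows and libraries.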

Additional observations from a re-analysis of the deposited data

How the results depend on the processing

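No paired analysis was possible because the labels number no replicates. Of 102 summary values under the alternatives, 77 stayed within 1.5 times the count, or within 1 SD of the value, as listed. They include distal peaks per gene without ERY replicate 1, whose sign changed (-0.0123 against 0.0539). Of 3455 values of single genes, 2617 kept their side of the threshold, 769 lost the call, 44 gained it and 25 changed sign. A change of sign was counted only where the gene passed as listed or under the alternative, so the 2617 may hold others. Reducing each list to equal covered length gave 4206 genes with higher locus coverage in iMK (2490 as listed), 289 ERY-only and 3666 iMK-only promoters (476 and 1877), a difference in distal peaks per gene of -0.300 (0.0539) and in downstream reach of 651.75 bp (393.5). The central 1 kb of each peak gave 1384 genes higher in ERY for the locus (3189), 1467 for distal length (2831) and 45 genes with moving TSSs (27). With only the peaks above the median significance of each list, 1060 genes had more distal length in iMK (1897), the share of length over 1 kb from a TSS differed by 19.8 points (12.03) and reach by 500.5 bp. Counting only bases over 5 kb from a TSS gave 1838 genes with more distal length in ERY and a share difference of 5.38 points, and a gap of 20 kb between TSSs left 17 genes. Leaving out each library in turn gave 917 to 3276 genes higher in ERY and 754 to 3248 higher in iMK for the locus, 1048 to 4059 and 705 to 3379 for distal length, and 32 to 46 genes with moving TSSs. With a library left out, the lone library of its group is assumed to vary like the other group, and the fit has fewer degrees of freedom. Beyond this the cause was not tested.

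Differences in locus coverage (ERY minus iMK, percentage points) are given where the sign changed and the gene passed as listed or under the alternative. With the central 1 kb of each peak they were Kcnn4 -6.59, Zfp36 4.26, Atf4 -4.03, Smad9 -0.0868, Sirt7 -1.86, Tubb5 -1.22, Vamp8 -1.96, Vamp5 -1.53, Slfn2 0.0431 and Vmn1r4 -2.77. With 50 kb on each side of the gene they were Sema4a 10.5, Cish -1.12, Socs1 1.70, Smad9 -1.92, Kdm1b 6.91, Fbxo24 10.9, Col4a3 -0.0851, Csf1r 11.6 and Col1a1 12.6, and with 2 kb Atf6b 10.1 and Eif4h 0.841. At equal covered length they were Rgs9bp -2.63 and Fcgr3 -3.26, and after quantile normalization Sirt7 -13.9 and Tubb5 -4.31. The cause was not tested.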
